A study of Mus musculus with 12 samples.

Results

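The TAM family is described here by 5 of the 55573 genes in the series, namely the ligands Gas6 and Pros1 and the receptors Axl, Mertk and Tyro3. They were taken by gene symbol, and every one had a row in all 12 libraries. The set was chosen by the Gas6 values of the Fadd line, where cells lacking Fadd had no Gas6 reads. For that reason no family member is tested between the groups of the Fadd line, and Gas6 is tested in the Casp8 line only.

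The cells were mouse embryonic fibroblasts (MEFs) made immortal with SV40 large T antigen. One line was Fadd-/-, Mlkl-/- and the other Casp8-/-, Mlkl-/-. Each line carried either an empty vector (the Fadd knockout and Casp8 knockout groups) or a vector giving back the missing gene (the Fadd restored and Casp8 restored groups). Every group is thus labelled as lacking Mlkl, the effector of necroptosis, and there is no wild-type group. RNA was taken from untreated cells 24 h after plating, from 3 cultures per group that the labels call independent. Each genotype is 1 line, so a difference between the Fadd line and the Casp8 line cannot be told apart from a difference between 2 fibroblast lines. FADD links death receptors to caspase-8, a protease that restrains necroptosis.

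TAM receptors are receptor tyrosine kinases on the cell surface. Their ligands GAS6 and protein S, the product of Pros1, carry a vitamin K-dependent domain that binds phosphatidylserine on dying cells, and a second domain that binds the receptor. GAS6 binds AXL, MERTK and TYRO3, whereas protein S is known mainly as a ligand of MERTK and TYRO3. In phagocytes the receptors drive uptake of dead cells and dampen interferon and Toll-like receptor signals. Fibroblasts are known to carry AXL, and MERTK is best known from macrophages.

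On mouse genome mm10 all members are protein-coding genes. Gas6 (ENSMUSG00000031451.6) lies on the minus strand at chr8:13465374-13494490, and its 3′ end overlaps Tmem255b on the other strand. Pros1 (ENSMUSG00000022912.8) lies on the plus strand at chr16:62854307-62929346. Axl (ENSMUSG00000002602.16) lies on the minus strand at chr7:25757273-25788705. Mertk (ENSMUSG00000014361.5) and Tyro3 (ENSMUSG00000027298.17) both lie on the plus strand of chromosome 2, at chr2:128698956-128802894 and chr2:119797733-119818104. Mertk overlaps the antisense gene Gm14011 and the small nucleolar RNA gene Gm23172, which had 0 counts in every library. Tmem255b had 1 count in 1 library of the Fadd knockout and 0 in the rest, so almost no reads were assigned to it where it meets Gas6.

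The 250 bases before the RefSeq start site (GRCm38.p6) are shown for the 2 ligands, whose group means took different orders, and for Axl, the most abundant receptor. Each is written 5′ to 3′ on the gene's own strand with CpG pairs in capitals. The windows are chr8:13494536-13494785 on the minus strand for Gas6, chr16:62854057-62854306 on the plus strand for Pros1 and chr7:25788734-25788983 on the minus strand for Axl.
Gas6: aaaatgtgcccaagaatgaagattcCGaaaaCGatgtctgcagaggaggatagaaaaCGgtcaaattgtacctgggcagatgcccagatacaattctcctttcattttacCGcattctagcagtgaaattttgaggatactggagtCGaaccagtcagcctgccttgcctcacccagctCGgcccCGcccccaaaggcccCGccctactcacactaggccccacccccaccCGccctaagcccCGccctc
Pros1: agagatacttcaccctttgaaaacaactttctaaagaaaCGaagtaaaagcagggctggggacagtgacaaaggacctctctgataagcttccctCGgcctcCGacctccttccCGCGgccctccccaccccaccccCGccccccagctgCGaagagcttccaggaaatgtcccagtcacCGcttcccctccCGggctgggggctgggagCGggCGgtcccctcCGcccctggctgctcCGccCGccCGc
Axl: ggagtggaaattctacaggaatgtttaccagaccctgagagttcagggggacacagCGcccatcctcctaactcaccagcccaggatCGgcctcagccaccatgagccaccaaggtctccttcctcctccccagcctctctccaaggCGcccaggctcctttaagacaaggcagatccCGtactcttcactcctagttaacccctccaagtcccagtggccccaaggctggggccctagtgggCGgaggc
The Gas6 window holds 10 CpG pairs, the Pros1 window 15 and the Axl window 5, against a median of 6 over 32851 promoters of the same length. The Tyro3 window, not printed, holds 24 and the Mertk window 7. A GC box (GGGCGG or its reverse complement CCGCCC) occurs 4 times in the Gas6 window, 5 times in that of Pros1, 3 times in those of Mertk and Tyro3, and 1 time in that of Axl. That motif is present in 32.7% of all promoters of this length. An E-box (CANNTG) is present 1 time in each ligand window and in none of the receptor windows, against 66.2% of all promoters. None of the 5 windows contains the AP-1 motif TGANTCA, present in 6.7% of all promoters, or the TATA motif TATAAA, present in 12.4%. Each motif was searched on both strands, and the matches describe letters only. Overlaps of matches with other motifs were not examined.

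Library totals ran from 33918359 to 59388559 counts. Fadd was at 0.0999 ± 0.0704 CPM (counts scaled to library size; SD, n = 3) in the Fadd knockout and 23.7 ± 3.96 in the Fadd restored cells. Casp8 was at 11.3 ± 1.01 CPM in the Casp8 knockout and 141 ± 63.4 in the Casp8 restored cells, where replicate 1 was lowest with 67.7. Mlkl reads were present in all 12 libraries, at 3.69 to 15.9 CPM, and the sources used here do not give which part of Mlkl or Casp8 was deleted. The 12 fibroblast markers had a summed TPM (the level scaled for transcript length and library size) of 1136 to 3737. In the Fadd knockout 7 of them had a mean of at least 1 TPM, with S100a4 (832.5) and Vim (489) the highest. Col1a2, Dcn and Postn had means of 0.143, 0.307 and 0.08 TPM there. Thy1 was at 0 in all but the Casp8 knockout group and Lum at 0 in the Fadd line. The 10 macrophage and leukocyte markers summed to 2.12 to 6.93 TPM, with Ptprc and Adgre1 at 0 outside the Casp8 knockout group. On the first principal component of all genes tested, with 52.3% of the variance, both replicate 1 libraries of the Casp8 line stood apart at 22.3 and 36.3, against 81.9 to 103 for the other 4 Casp8-line libraries. The tested differences of the members that involve that line are therefore given with and without them.

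**Figure D1:**
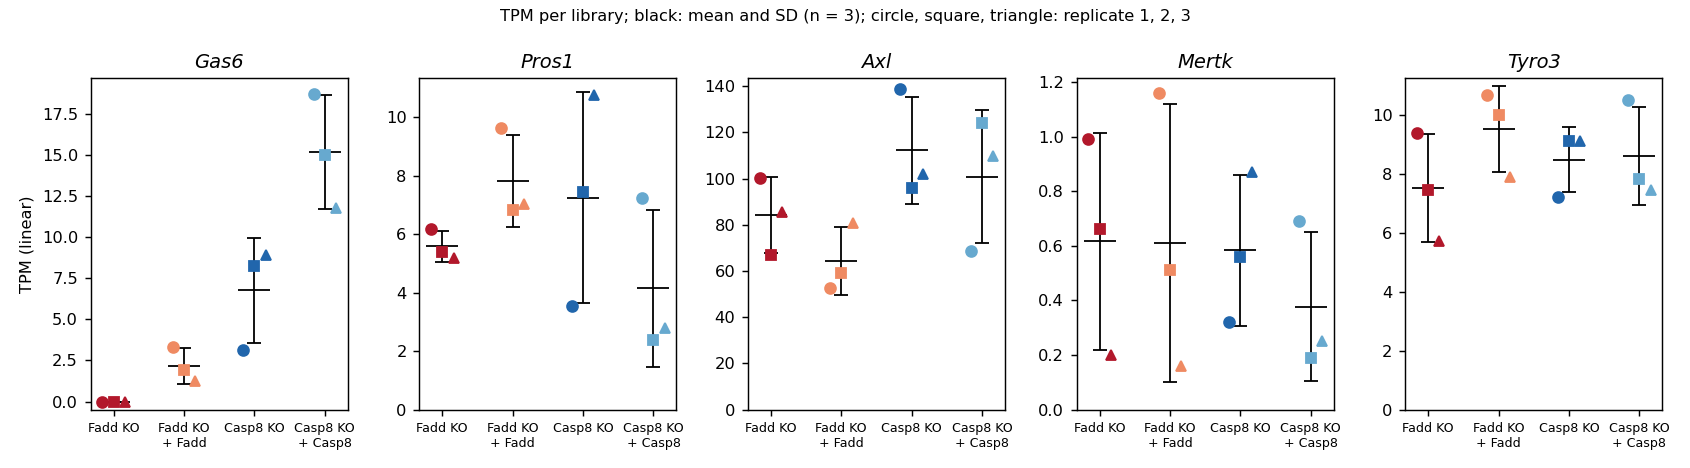
Each panel plots one gene, with TPM on a linear y axis and the 4 groups on the x axis. Points are libraries (circle, square and triangle for replicates 1, 2 and 3), and black bars are the mean and SD of 3 libraries. Gas6 is at 0 in the Fadd knockout and at 11.8 to 18.7 TPM in the Casp8 restored cells, and Mertk and Tyro3 overlap between all groups.

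Gas6 was the only member with a group at 0 counts. In the 3 Fadd knockout libraries it had 0 counts out of 154375234. In the Fadd restored libraries it had 611, 311 and 231 counts, equal to 13.04, 7.49 and 5.02 CPM. The Fadd groups thus did not overlap. Among all 16396 genes tested, 8.74% were lower in the Fadd knockout without overlap, and 1.52% were called at an adjusted p under 0.05 (0.287% higher and 1.24% lower), but these shares are background only, since the comparison chose the gene. Set against 3 counts over the knockout group (0.0190 CPM), Gas6 was at least 447-fold lower than the 8.52 ± 4.11 CPM (SD, n = 3) of the restored group. The bound falls to 210 without both replicate 1 libraries of the Fadd line. It covers counting error only.

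Gas6 was present in every library of the Casp8 line. The Casp8 knockout libraries had 12.2, 34.0 and 30.6 CPM, and the Casp8 restored libraries 69.0, 58.3 and 45.0. Each knockout library was below each restored library, a separation that 4.91% of all genes tested showed in this direction. The fitted knockout level was 0.446 of the restored level, a log2 change of -1.16 with a standard error (SE) of 0.44 and a 95% interval of -2.15 to -0.18. This change did not pass the threshold: edgeR's quasi-likelihood test gave an adjusted p of 0.774, and 0.0061% of genes (1 of 16396, Casp8 itself) were called in this comparison. Over 21 alternatives the log2 change lay between -1.43 and -0.68, with adjusted p from 0.404 to 1. Without both replicate 1 libraries of the Casp8 line it was -0.68.

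Ordered by mean, Gas6 stood at 15.2 ± 3.46 TPM in the Casp8 restored group, 6.76 ± 3.18 in the Casp8 knockout, 2.15 ± 1.08 in the Fadd restored group and 0 in the Fadd knockout (SD, n = 3). The Casp8 knockout and the Fadd restored group overlapped, because replicate 1 of the Casp8 knockout (3.11 TPM) was below replicate 1 of the Fadd restored cells (3.34 TPM). Other neighbours in that order did not overlap. Between the lines, as a description, Gas6 was at least 1345-fold lower in the Fadd knockout than in the Casp8 knockout (14.8% of genes were lower without overlap), and its log2 difference between Fadd restored and Casp8 restored was -2.75 (SE 0.46), without overlap (14.4% of genes). The same Fadd knockout libraries enter the Fadd-line comparison and that between the knockouts.

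The summed TPM of the 12 fibroblast markers differed between the lines as well. It was 1136 to 1633 in the Fadd knockout, 1704 to 1870 in the Fadd restored, 2542 to 3598 in the Casp8 knockout and 2557 to 3737 in the Casp8 restored libraries. Of these markers, 7, 8, 9 and 9 had a mean of at least 1 TPM in those groups. The sums of the 2 Casp8 groups coincided, where those of Gas6 did not overlap. Single markers differed in direction: Col1a2 had means of 0.143, 33.0, 584 and 567 TPM in that order and Vim 489, 669.5, 943 and 1072, whereas S100a4 had 832.5, 860, 451 and 680 and Dcn 0.307, 0.163, 0.0667 and 0.0233. Their part in the Gas6 result was not tested. Fewer cells of a type and less RNA per cell cannot be told apart in bulk samples.

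The genes nearest to Gas6 on chromosome 8 did not share its pattern of reads. Rasa3, a Ras GTPase-activating protein gene 72458 bases away, was at 113 ± 16.7 CPM in the Fadd knockout, 114 ± 34.1 in the Fadd restored, 88.6 ± 5.11 in the Casp8 knockout and 121 ± 43.4 in the Casp8 restored cells (SD, n = 3). Atp4b, a proton pump subunit gene on the other side, had 0.647 ± 0.325 CPM in the Fadd knockout, where Gas6 was at 0, and 0 in all 6 Casp8-line libraries, where Gas6 was present. Among Grk1, Tmem255b, 1700029H14Rik and Cfap97d2 the highest value in any of the 12 libraries was 0.115 CPM (Grk1). Rasa3 was thus the only one of these 6 neighbours above the 1.02 CPM that Atp4b reached in replicate 1 of the Fadd knockout.

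The 4 protein-coding genes closest to Gas6 by the root mean square difference of centred log2 CPM over the 12 libraries were Zfp422 (0.82), Ackr3 (0.97), Fbln2 (1.11) and Col1a2 (1.13). Zfp422, a zinc finger gene, was at 0.00586 ± 0.0101 CPM in the Fadd knockout, 15.01 ± 1.37 in the Fadd restored, 32.4 ± 5.56 in the Casp8 knockout and 32.2 ± 9.33 in the Casp8 restored cells. Col1a2, a chain of type I collagen and one of the fibroblast markers, was at 1.22 ± 0.744, 256 ± 140, 4321 ± 2296 and 4155 ± 1864 CPM in the same order. Both share with Gas6 the near absence in the Fadd knockout, but their 2 Casp8-line means lie close together, where those of Gas6 were 25.6 ± 11.8 and 57.4 ± 12.03. Fbln2, an extracellular matrix gene, had 0.0350 ± 0.0463 CPM in the Fadd knockout and 39.5 ± 14.4 in the Fadd restored cells. With a smaller prior count (0.5 in place of 2), 3 of the 4 genes were again the closest, and Ackr3, an atypical chemokine receptor, was not.

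Pros1, the gene of protein S, was present in all groups and had another order. It was at 36.8, 28.9 and 29.7 CPM in the Fadd knockout, and at 49.5, 35.5 and 37.7 in the Fadd restored libraries. The Casp8 knockout libraries had 18.1, 40.6 and 48.5 CPM of Pros1 and the Casp8 restored libraries 35.3, 12.01 and 14.01. The Fadd restored group had the highest mean TPM (7.83 ± 1.58), followed by the Casp8 knockout (7.25 ± 3.61), the Fadd knockout (5.58 ± 0.518) and the Casp8 restored group (4.15 ± 2.69), and each neighbouring pair overlapped.

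Within the Fadd line Pros1 was lower in the knockout library in each of the 3 pairs of equal replicate number, with a log2 difference of -0.36 (SE 0.42). The groups overlapped in CPM but not in TPM, where the knockout libraries had 5.19 to 6.17 and the restored libraries 6.82 to 9.65. The share of all genes without overlap in TPM was not computed. Since this comparison also chose the set, nothing is read from that separation. Within the Casp8 line its log2 change was 0.81 (SE 0.42, 95% interval -0.13 to 1.74), and the edgeR quasi-likelihood test gave an adjusted p of 0.906. That value rests on the replicate 1 libraries. Without both of them Pros1 was higher in the Casp8 knockout by 1.77 on the log2 scale, with an adjusted p of 0.0296 in edgeR from 2 libraries per Casp8-line group. That fit, chosen after seeing the data, called 111 genes in this comparison, against 1 with all 12 libraries.

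Pros1 was also compared between the restored groups. Each Fadd restored library was above each Casp8 restored library in CPM (35.5 against 35.3 at the closest), though not in TPM (6.82 against 7.25), and 12.5% of all genes tested were higher without overlap in CPM. In this comparison 6.34% of genes were called (2.93% higher and 3.4% lower). The log2 difference was 1.00 (SE 0.43, 95% interval 0.07 to 1.94), with an adjusted p of 0.203 in edgeR, so it did not pass the threshold. Without replicate 1 of the Casp8 restored group it was 1.65 with an adjusted p of 0.0186 in edgeR. Without both replicate 1 libraries of that line, a choice made after seeing the data, it was 1.65 with an adjusted p of 0.000997. These fits called 2251 and 3118 genes in this comparison, against 1039 with all 12 libraries. Between the knockout groups, where 10.5% of genes were called (3.46% higher and 7.01% lower in the Fadd knockout), Pros1 differed by -0.17 (SE 0.42) with an adjusted p of 0.861, and by -0.49 without both replicate 1 libraries of the Casp8 line.

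**Figure D2:**
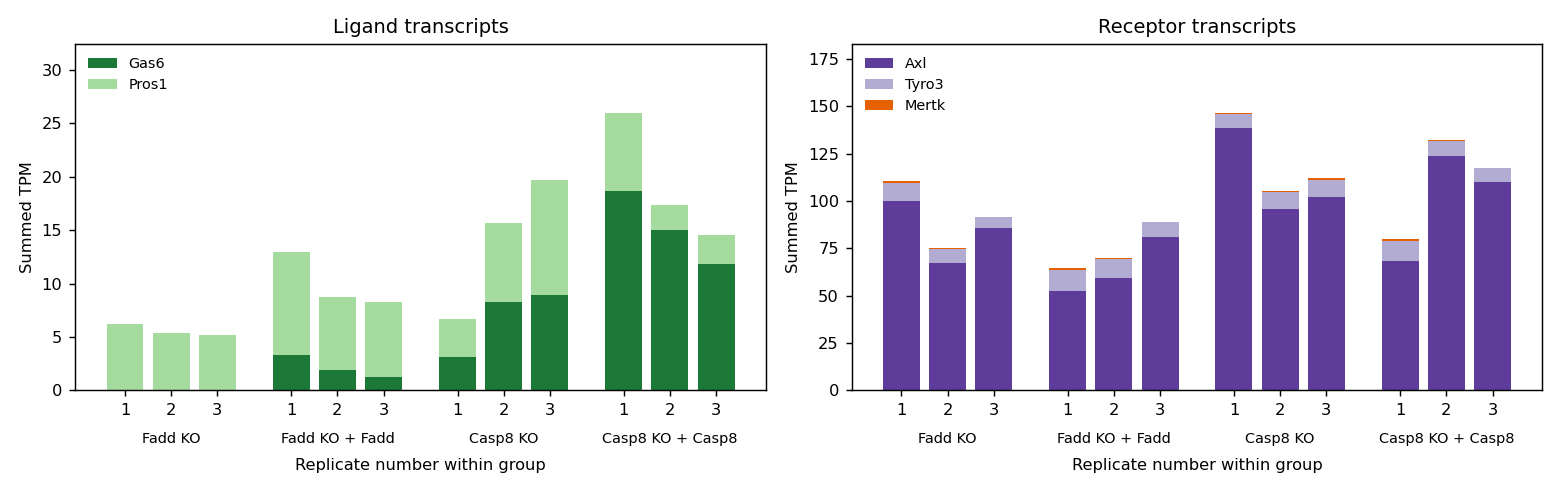
Stacked bars show summed TPM per library (linear y axis from 0) for the 2 ligand genes on the left and the 3 receptor genes on the right, with libraries on the x axis by group and replicate number. The Gas6 part of the ligand bars is absent in the 3 Fadd knockout libraries and averages 79.7% in the Casp8 restored group, and Axl fills most of every receptor bar.

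Per transcript length, the makeup of the ligand RNA changed across the groups while that of the receptor RNA changed little. Gas6 gave 0% of the ligand TPM in the Fadd knockout, 20.8 ± 5.46% in the Fadd restored, 48.2 ± 3.76% in the Casp8 knockout and 79.7 ± 7.13% in the Casp8 restored cells (SD, n = 3). The lowest and highest libraries were 14.9% and 25.7% in the second of these groups, 45.4% and 52.5% in the third and 72.1% and 86.2% in the last, so no groups overlapped. These shares contain the Gas6 values that chose the set and carry no test. Gas6 exceeded Pros1 in 4 of 12 libraries, all in the Casp8 line. The summed ligand TPM was 5.58 ± 0.518, 9.98 ± 2.61, 14.0 ± 6.68 and 19.3 ± 5.93 in the same order.

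Axl was by far the most abundant member. It gave 91.1 ± 2.21%, 85.8 ± 4.72%, 92.3 ± 2.25% and 91.1 ± 4.47% of the receptor TPM in the Fadd knockout, Fadd restored, Casp8 knockout and Casp8 restored groups (SD, n = 3). Its TPM was 4.92 to 19.2 times that of Tyro3 and 45.3 to 653 times that of Mertk over the 12 libraries. Among protein-coding genes tested, 93.9% to 96.5% had a lower mean TPM than Axl in each group. For Tyro3 this share was 53.2% to 57.7%, and for Mertk 13.6% to 17.0%.

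Axl stood at 556, 350 and 438 CPM in the Fadd knockout and at 250, 293 and 408 in the Fadd restored libraries. It was higher in the knockout library of each of the 3 pairs, by 0.50 on the log2 scale (SE 0.29), and the groups overlapped through restored replicate 3. The Casp8 knockout libraries had 685, 485 and 428 CPM and the Casp8 restored libraries 310, 596 and 514. Here the log2 change was 0.17 (SE 0.29, 95% interval -0.47 to 0.81) with an adjusted p of 0.999 in edgeR, higher in 1 of 3 pairs. It was -0.28 without both replicate 1 libraries of that line.

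By mean TPM, Axl stood at 112 ± 23.3 in the Casp8 knockout and 101 ± 28.8 in the Casp8 restored cells. It was at 84.3 ± 16.6 in the Fadd knockout and 64.3 ± 14.8 in the Fadd restored cells. Neighbouring groups in this order overlapped. The Casp8 knockout (95.7 to 138.8 TPM) and the Fadd restored cells (52.6 to 80.95) did not, and the share of all genes for that pair was not computed. Fadd restored and Casp8 restored cells differed by -0.58 on the log2 scale (SE 0.29, 95% interval -1.22 to 0.06), with an adjusted p of 0.29 in edgeR. The difference was -0.81, with an adjusted p of 0.0497 in edgeR, when both replicate 1 libraries of the Casp8 line were left out. That fit, chosen after seeing the data, called 3118 genes in this comparison, against 1039 with all 12 libraries. Between the knockouts Axl differed by -0.25 (SE 0.29, 95% interval -0.89 to 0.39, adjusted p of 0.674 in edgeR). Without both replicate 1 libraries of the Casp8 line this difference was -0.031.

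Tyro3, best known from the nervous system, varied least of the 5 genes. Its libraries ran from 33.7 to 58.5 CPM in the Fadd knockout, 45.9 to 57.6 in the Fadd restored, 40.1 to 54.1 in the Casp8 knockout and 42.7 to 49.6 in the Casp8 restored group. All groups overlapped with their neighbours. The log2 difference in the Fadd line was -0.28 (SE 0.21). For the Casp8 line the value was 0.05, with a 95% interval of -0.41 to 0.51 and an adjusted p of 0.999 in edgeR. Between the lines it was -0.08 in the knockouts (95% interval -0.53 to 0.38, adjusted p of 0.872) and 0.25 in the restored cells (95% interval -0.21 to 0.71, adjusted p of 0.55), again with edgeR. Without both replicate 1 libraries of the Casp8 line these 3 values were 0.22, -0.18 and 0.33.

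Mertk was the least abundant receptor, at 0.377 to 0.617 TPM by group mean and 54 to 431 counts per library. Its replicates differed more than its groups. In the Fadd knockout it had 7.57, 4.62 and 1.55 CPM, and in the Fadd restored cells 7.92, 3.52 and 1.17, so that libraries of equal replicate number were close and those of 1 group were not. The Casp8 knockout libraries had 2.21, 4.03 and 5.18 CPM and the Casp8 restored libraries 4.43, 1.31 and 1.65. Its SD of log2 CPM within groups was 1.05, larger than that of 91.6% of genes tested, against 0.64 for Gas6 (over the 3 groups with reads), 0.59 for Pros1, 0.39 for Axl and 0.26 for Tyro3. The log2 difference in the Casp8 line was 0.63 with a 95% interval of -0.999 to 2.25 (adjusted p of 0.999, edgeR). It was 0.27 between the knockouts (95% interval -1.34 to 1.88, adjusted p of 0.872) and 0.77 between the restored groups (95% interval -0.85 to 2.40, adjusted p of 0.618) in the same test. Without both replicate 1 libraries of the Casp8 line these 3 values were 1.63, -0.006 and 1.504, none of them past the threshold. The Fadd-line difference was 0.13 (SE 0.73). It was -0.44 without replicate 1 of the Fadd knockout, -0.31 without replicate 3 of the Fadd restored group, 0.53 without replicate 3 of the Fadd knockout and 1.02 without replicate 1 of the Fadd restored group.

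**Figure D3:**
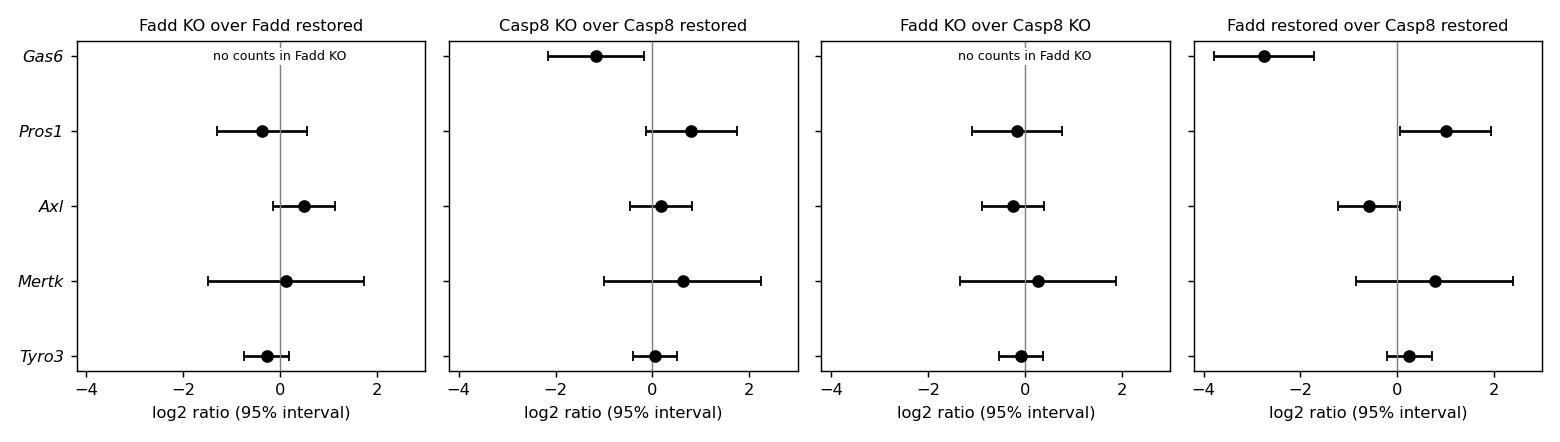
Points are fitted log2 ratios (x axis) of the 5 genes (y axis) in 4 comparisons, and bars are 95% intervals from the edgeR fit. Gas6 in the Casp8 line and between the restored groups lies left of 0, and no ratio is drawn for Gas6 where the Fadd knockout had no counts.

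Several members moved together from library to library. In the Casp8 line, replicates 2 and 3 of the knockout and replicate 1 of the restored group had the 3 highest values of Pros1, Mertk and Tyro3 and the 3 lowest values of Axl. Those libraries cut across the genotype. Over the whole line Gas6 was ordered otherwise, as its 3 highest values were the 3 restored libraries. Within each Casp8-line group, though, Gas6 at replicate 1 stood as Pros1, Mertk and Tyro3 did. It was lowest in the knockout (12.2 against 34.0 and 30.6 CPM) and highest in the restored group (69.0 against 58.3 and 45.0). Replicate 1 of the Casp8 knockout had the highest Axl (685 CPM) and the lowest Gas6 (12.2 CPM) of the line. In the Fadd line the replicate 1 libraries had the highest Mertk, Pros1 and Tyro3 of their groups. Gas6 was likewise highest in replicate 1 of the restored cells (13.04 CPM). Axl was highest in replicate 1 of the knockout and lowest in replicate 1 of the restored cells.

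**Figure D4:**
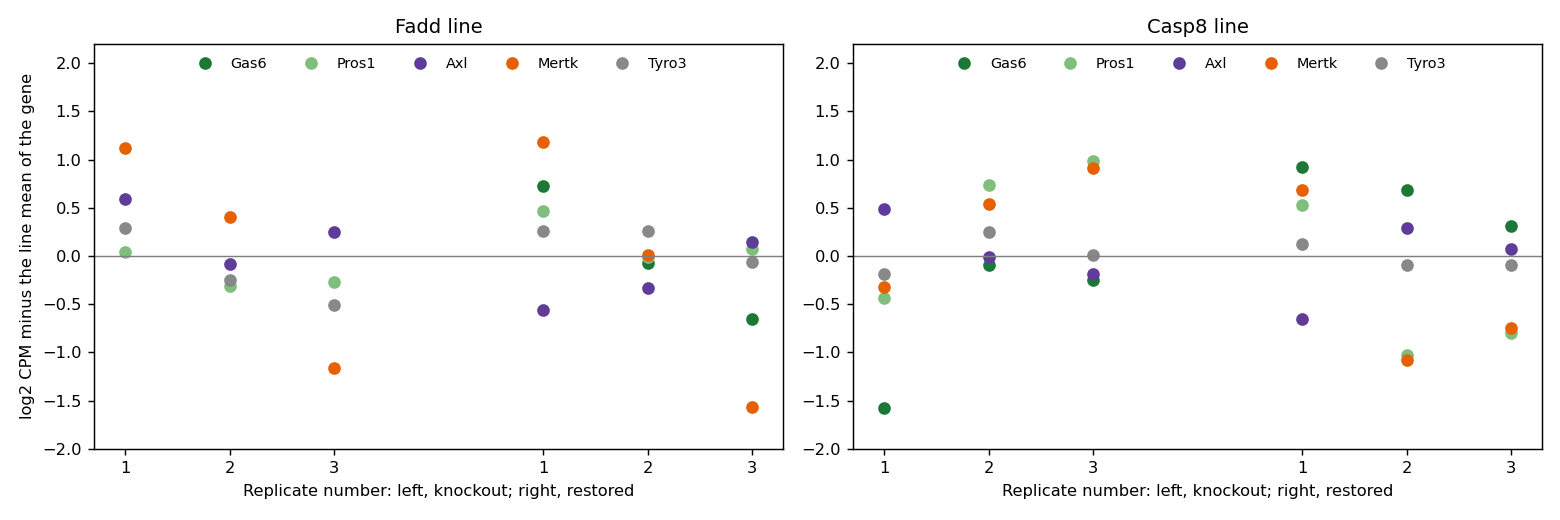
Points show log2 CPM of each gene in each library minus that gene's mean over its line (y axis), with the Fadd line on the left, the Casp8 line on the right, and replicate numbers of knockout and then restored libraries on the x axis. Gas6 is not drawn where it had no counts. In the Casp8 line Pros1 and Mertk lie together in every library and Axl lies on the other side of 0 in most.

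The same measure picked the protein-coding genes closest to the other members over the 12 libraries, so their closeness carries no test. For Pros1 these were Slc27a3 (root mean square difference of 0.23 in centred log2 CPM) and Siae (0.31), for Axl Aida (0.24) and Zcchc2 (0.24), for Mertk Ankrd37 (0.22) and Arhgap18 (0.33), and for Tyro3 Atg13 (0.10) and Ttc5 (0.10). Ankrd37 repeated the wide spread of Mertk, at 5.96 ± 4.72 CPM in the Fadd knockout and 6.12 ± 6.13 in the Fadd restored cells (SD, n = 3). The smaller prior count gave the same genes for these 4 members.

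Another 9 lists hold 113 genes of the pathway and of related groups, such as other clearance receptors and other receptor tyrosine kinases. Of these genes 96 passed the low-count filter. In the Fadd line 0 were called higher and 1 lower, beside 0.287% and 1.24% of all genes tested. There 10 had an unadjusted p under 0.05 in edgeR (10.3% of all genes tested), and the median log2 change was 0.04 against 0.004 over all genes tested. In the Casp8 line 0 of 96 were called, beside 0.0061% of all genes tested. There 6 had an unadjusted p under 0.05 in edgeR (5.67% of all genes tested), and the median was 0.12 against 0.008. DESeq2 and limma-voom also gave 0 calls in the Casp8 line. The 1 called gene was Elmo1, an adaptor of engulfment signalling, which was at 0.129 ± 0.0512 CPM in the Fadd knockout and 1.20 ± 0.656 in the Fadd restored cells (log2 change -3.20, SE 0.62, adjusted p of 0.0296 in edgeR). Its call was lost in 10 of 21 alternatives, where the adjusted p reached 0.12. They include leaving out any 1 library of the Fadd knockout, replicate 2 or 3 of either restored group, or replicate 2 of the Casp8 knockout.

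The enzymes that make GAS6 and protein S active were expressed in all groups. All 7 genes of the list on carboxylation and processing were tested, and 0 were called in either line or between the lines. Ggcx, the gamma-glutamyl carboxylase, had group means of 5.64 to 7.91 TPM. Vkorc1, which recycles vitamin K, had 23.2 to 27.0 TPM. Among the other vitamin K-dependent proteins 4 of 12 passed the filter, and 0 were called in any comparison. Of all genes tested, 1.52% were called in the Fadd line, 0.0061% in the Casp8 line, 10.5% between the knockouts and 6.34% between the restored groups.

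Enzymes and inhibitors that set shedding of the receptors were present too. Adam10, a sheddase of AXL, had group means of 17.1 to 24.2 TPM and Adam17, which sheds MERTK, 13.2 to 16.2 TPM. In neither line was any of these 5 genes called, beside 1.52% (Fadd) and 0.0061% (Casp8) of all genes tested. Between the knockouts Timp1, a metalloproteinase inhibitor, was lower in the Fadd knockout at 20.7 ± 10.2 against 86.8 ± 17.9 CPM (log2 difference -2.07, SE 0.44, adjusted p of 0.013 in edgeR). Of other proposed TAM ligands 1 of 3 was tested, Lgals3, with a log2 change of -1.05 in the Fadd line (adjusted p of 0.712) and 0.66 in the Casp8 line (adjusted p of 0.993) by the same test.

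Further lists cover phosphatidylserine exposure and other clearance receptors. Within each line 0 of the 8 exposure genes and 0 of the 15 clearance genes were called. The shares of all genes tested were 1.52% in the Fadd line and 0.0061% in the Casp8 line. Between the knockouts 1 exposure gene was higher and 1 lower in the Fadd knockout, and 1 clearance gene was higher and 3 were lower, beside 3.46% higher and 7.01% lower of all genes tested. Between the restored groups 0 exposure genes were called. There 1 clearance gene was higher and 1 lower in the Fadd restored cells, beside 2.93% higher and 3.4% lower of all genes tested. Sirpa, the receptor of the signal against uptake CD47, was at 0.0613 ± 0.0443 CPM in the Fadd knockout and 16.2 ± 13 in the Casp8 knockout (log2 difference -7.96, SE 1.21, adjusted p of 0.00212 in edgeR). Sirpa was likewise lower in the Fadd restored than in the Casp8 restored cells, at 0.0738 ± 0.0690 against 9.90 ± 5.14 CPM. That log2 difference was -7.01 (SE 1.17, adjusted p of 0.0076 in edgeR), a call lost in 1 of 20 alternatives. Stab1, a scavenger receptor that binds phosphatidylserine, was higher in the Fadd line in both comparisons, by 4.08 between the knockouts and 4.56 between the restored groups on the log2 scale (adjusted p of 0.00377 and 0.00678 in edgeR). Itgav, the alpha chain of integrins that bind the bridging protein MFG-E8, was lower in the Fadd knockout by a log2 difference of -0.91 (SE 0.16, adjusted p of 0.00415 in edgeR). Over 20 alternatives the calls of Stab1 and Itgav were lost in 0, and those of Sirpa and Timp1 between the knockouts in 1 each (Sirpa with limma-voom, Timp1 without replicate 2 of the Casp8 knockout). The other calls were Plscr1, a scramblase (log2 difference 0.82), lost in 4, Ano6, another scramblase (-0.82), lost in 11, and Thbs1, a bridging protein (-1.62), lost in 9.

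In the list of signal relay below the receptors 23 of 24 genes were tested, and between the knockouts 0 were higher and 3 lower in the Fadd knockout, where 7.01% of all genes tested were lower. These were Plcg2, Elmo1 and Src. Plcg2, a phospholipase, was at 0.0134 ± 0.0117 against 6.20 ± 3.43 CPM (log2 difference -8.65, SE 1.29, adjusted p of 0.002 in edgeR). The kinase Src was at 61.1 ± 5.37 against 101 ± 7.86 CPM (log2 difference -0.73, adjusted p of 0.0178 in edgeR), a call lost in 3 of 20 alternatives (without replicate 2 or 3 of the Fadd knockout or replicate 2 of the Casp8 knockout).

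Among 17 genes through which TAM receptors act on interferon and Toll-like receptor signals, 0 were called within either line. Of all genes tested, 1.52% were called in the Fadd line and 0.0061% in the Casp8 line. Twist2 and Twist1, repressors known to be induced through AXL, went opposite ways between the lines. Twist2 was higher in the Fadd line by 1.87 between the knockouts and 1.56 between the restored groups (log2, adjusted p of 0.01 and 0.0333 in edgeR), and Twist1 was lower by log2 differences of -0.88 and -1.03 (adjusted p of 0.0441 and 0.0336 in edgeR). Of 20 alternatives the Twist2 calls were lost in 2 and 7, and the Twist1 calls in 15 and 4. Leaving out replicate 2 of the Casp8 knockout ended both Twist2 calls and the Twist1 call between the knockouts. Jak1, a kinase of the interferon receptor, was lower in the Fadd line at -0.54 between the knockouts and -0.50 between the restored groups (adjusted p of 0.0244 and 0.0471 in edgeR), calls lost in 7 and 12 of 20 alternatives. Between the knockouts 1 gene of this list was higher and 2 were lower in the Fadd line, and between the restored groups likewise. Over all genes tested 3.46% were higher and 7.01% lower between the knockouts, and 2.93% and 3.4% between the restored groups.

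Interferon-stimulated genes took the opposite order to Gas6 in their group means. The mean log2 CPM over 36 such genes was 7.44, 5.56 and 5.54 in the Fadd knockout libraries and 2.88, 4.63 and 4.70 in the Fadd restored libraries. It was 1.78, 3.90 and 3.67 in the Casp8 knockout and 1.71, 0.91 and 1.15 in the Casp8 restored libraries. Within the groups the order was mixed. Gas6 rose with the interferon mean in the Casp8 knockout (12.2, 34.0 and 30.6 CPM by replicate) and fell with it in the Fadd restored group (13.04, 7.49 and 5.02). In the Casp8 restored group replicate 1 had the highest of both (Gas6 at 69.0 CPM). Of the 36 genes 1 (Oasl1) was called higher in the Fadd knockout against its restored group (0.287% of all genes tested) and 0 in the Casp8 line (0%). An unadjusted p under 0.05 in edgeR was reached by 28 and 23, beside 10.3% and 5.67% of all genes tested. The median log2 changes of the list were 2.05 and 2.14. Between the lines, 20 of 36 were called higher in the Fadd knockout than in the Casp8 knockout (3.46% of all genes tested) and 18 of 36 higher in the Fadd restored than in the Casp8 restored cells (2.93%), with 0 lower in both. Whether their level has a part in the Gas6 values was not tested. Axl, a receptor that interferon is known to induce in dendritic cells, was highest in the Fadd-line library with the highest interferon mean (replicate 1 of the knockout) and lowest in the one with the lowest (replicate 1 of the restored cells). Its highest Casp8-line library, replicate 1 of the knockout, had an interferon mean of 1.78, below the 3.90 and 3.67 of the other knockout libraries.

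Of 16 other receptor tyrosine kinases of fibroblasts, 0 were called within either line, as for the TAM receptors in the Casp8 line. Calls over all genes tested were 1.52% in the Fadd line and 0.0061% in the Casp8 line. Between the knockouts Egfr was lower in the Fadd knockout at 29.2 ± 6.84 against 70.5 ± 26.4 CPM (log2 difference -1.27, SE 0.28, adjusted p of 0.015 in edgeR), a call lost in 5 of 20 alternatives. Between the restored groups 4 were lower in the Fadd restored cells, where 3.4% of all genes tested were lower. Among them was Ephb2 at 9.65 ± 6.72 against 66.2 ± 18.3 CPM (log2 difference -2.78, adjusted p of 0.0213 in edgeR, lost in 4 of 20 alternatives). Ephb2 was at 47.6 ± 3.81 CPM in the Fadd knockout and 45.6 ± 28.3 in the Casp8 knockout. Axl, Mertk and Tyro3 were not called in either of these comparisons, with the intervals given above.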

How the data were processed

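RNA from 12 cultures (4 groups of 3) was sequenced from total RNA with a stranded kit, per the labels' protocols. Per the labels, the authors trimmed reads with Cutadapt in Trim Galore 0.5.0, aligned them with STAR 2.7.5a to mm10 with GENCODE M22 and counted genes with RSEM. The deposited gene tables hold expected counts, TPM and FPKM per the file headers. No source used here gives the strand setting of the counting. FPKM and a deposited table of retroviral elements were not used here.

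Each table has 55665 rows, of which 92 spike-in rows were left out. Of the counts above 0, 96.05% are whole, and the 60 member counts are whole. Expected counts were rounded. TPM are used as the authors deposited them, and only TPM compares genes with each other. Genes passing edgeR's filterByExpr (minimum count 10; 16396 genes, all 5 members among them) were fitted in edgeR 4.0.16 (R 4.3.3) with TMM scaling and 1 mean per group over 12 libraries. P-values come from the quasi-likelihood test with Benjamini-Hochberg adjustment over all genes tested, and an adjusted p under 0.05 is a call. The script was tested on simulated data. CPM are TMM-scaled. DESeq2 1.42.0, limma-voom (limma 3.58.1), other scaling and filters, replicate blocks and left-out libraries were alternatives. Gene positions are from GENCODE M21, since M22 was not used here. Promoters are from RefSeq.

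Members and gene lists were chosen with earlier results of these data known. Named genes are the members, Fadd, Casp8 and Mlkl, up to 4 called genes per list and comparison whose higher group reached a mean of 1 CPM, the 3 nearest protein-coding genes on each side of Gas6, and the genes with the closest course. Lgals3, Ggcx, Vkorc1, Adam10 and Adam17 fall outside this rule; their values were known when they were picked.

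Libraries of equal replicate number deviated together in the Fadd line (correlations of 0.66, 0.391 and 0.639). The correlations were weaker in the Casp8 line (0.203, 0.305 and 0.127) and between the restored groups (0.317, 0.161 and 0.243). Between the knockouts they were -0.252, 0.0711 and -0.371. The members ran the other way in the Casp8 line. Gas6, Pros1, Mertk and Tyro3 were lowest in replicate 1 of the knockout and highest in replicate 1 of the restored group, and Axl was the reverse. What the numbers mark is not given, so pairing in the Casp8 line is not established. The main fit did not pair libraries. P-values measure the spread between cultures of 1 line each.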

Additional observations from a re-analysis of the deposited data

How the results depend on the processing

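Each result was recomputed under up to 21 alternatives. Of these recomputations 421 stayed on the same side of the test or, for values without a test, within the spread between replicates, 4 newly passed the threshold, 55 moved (counts of calls, and the Gas6 bound) and 15 reversed the direction of a tested difference that had not passed the threshold. Untested values near 0 also changed sign: Mertk in the Fadd line ranged from -0.441 to 1.022 with 1 library left out, and Tyro3 in the Casp8 line was -0.020 as a ratio of TPM means. Gas6 kept its direction in the Casp8 line throughout and was called in none of the alternatives. The replicate block changed no call of a member (Gas6 in the Casp8 line -1.12; with a block within each line -1.26) and moved Mertk between the knockouts to -0.17. A block within each line was not run for comparisons between lines. Without both replicate 1 libraries of the Casp8 line, a choice made after seeing the data, Pros1 passed the threshold in that line (1.77) and between the restored groups (1.65), as did Axl between the restored groups (-0.81), while Axl in the Casp8 line turned to -0.28 and Mertk between the knockouts to -0.006. Without both replicate 1 libraries of the Fadd line, Mertk turned to -0.295 between the knockouts and -0.071 between the restored groups, and the Gas6 bound fell to 210. Leaving out 1 library at a time gave -0.071 to 0.373 for Axl and -0.070 to 0.148 for Tyro3 in the Casp8 line, -0.488 to 0.11 for Pros1, -0.295 to 0.677 for Mertk and -0.329 to 0.081 for Tyro3 between the knockouts, and 0.73 to 1.65 for Pros1 and -0.097 to 1.518 for Mertk between the restored groups. The causes were not tested.

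The number of genes called in the Fadd line (250) was 697 with DESeq2, 444 with a replicate block within each line, 111 and 524 without the replicate 1 libraries of the Fadd and Casp8 lines, and 103 to 390 with 1 library left out. For the Casp8 line (1) it was 143 with DESeq2, 4 without the low-count filter, 6 with the block within each line, 0 with only the 6 libraries compared, 4 and 111 without the replicate 1 libraries of each line, and 0 to 22 with 1 library left out. Between the knockouts (1718) it was 2753 with DESeq2, 1046 with only the 6 libraries, 3305 without the replicate 1 libraries of the Casp8 line, and 829 to 2558 with 1 library left out. Between the restored groups (1039) it was 2058 with DESeq2, 638 and 3118 without the replicate 1 libraries of each line, and 301 to 2251 with 1 library left out. Pathway genes called in the Fadd line (1) were 3 with DESeq2, 0 with limma-voom, 3 without the filter, 2 with the replicate block, 4 with the block within each line, 0 with only the 6 libraries, 5 without the replicate 1 libraries of the Casp8 line, and 0 to 3 with 1 library left out. DESeq2 gave 224 higher and 473 lower calls in the Fadd line against 47 and 203. Mertk had the fewest counts among members with reads in every library, 54 to 431.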
